A study of Homo sapiens with 6 samples.

Results

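The matrix metalloproteinases (MMP), the ADAM and ADAMTS proteases and their TIMP inhibitors were examined in cultures labelled NCI-H69, a long-established line from human small cell lung cancer. Members were all genes of the deposited expression table whose symbol is MMP, TIMP, ADAM or ADAMTS followed by a number, which gave 52 of 17170 genes: 15 MMPs, 15 ADAMs, 19 ADAMTSs and 3 TIMPs. The labels describe 6 samples of poly(A) RNA: 3 controls that carry a guide RNA without a target and 3 samples with a stable CRISPR/Cas9 knockout of SCRMP, which is encoded within the MIR7-3HG locus. No column of the table carries the name of a knockout sample, so the values below are levels in the 3 control libraries and no test between groups was run. Each title calls its sample a biological replicate. The labels do not say whether the lines are clones or whether the cultures of a group were grown apart. SDs (n = 3 throughout) therefore measure the spread between these libraries, which may be in part technical.

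The proteases of these families share a zinc-dependent catalytic domain, which lacks a working active site in some ADAMs. These proteases are made as inactive precursors. MMPs cut collagens, gelatin and other matrix proteins, ADAMs are mostly membrane-bound and release the outer parts of receptors, growth factors and adhesion molecules, and ADAMTSs are secreted and act on proteoglycans, procollagens and other matrix proteins. TIMPs bind the active site of many MMPs in a complex of equal parts, and TIMP3 also inhibits several ADAMs and ADAMTSs. In the lung, matrix proteases are studied mainly for tissue remodelling and tumour invasion, and stromal cells are a common source of them. Levels of mRNA do not measure protein, activation of the precursors or inhibition.

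The libraries held 20941185, 22309228 and 22477571 estimated reads in control replicates 1, 2 and 3. The labelled cell type was checked against fixed markers. Of 6 small cell lung cancer markers, NCAM1 (25.7 TPM ± 3.66) was the 1 detected. TPM is a read level divided by transcript length and scaled to an equal sum in each library. Detected means at least 1 TPM in all 3 libraries, which 66.5% of all genes reached. None of the 6 was at 0, and CHGA, a granule protein and defining neuroendocrine marker, had 0.080 TPM ± 0.020. Fibroblast markers had 9 of 10 genes detected, with a summed level of 1462 TPM ± 86.8 and none at 0. Leukocyte markers had 2 of 5 measured genes detected (summed level 10.5 TPM ± 1.62, none at 0) and endothelial markers 0 of 3 (0.610 TPM ± 0.0781, none at 0 in all libraries). The marker levels thus go against the label: 5 of 6 small cell lung cancer markers were not detected. POSTN (693.8 TPM ± 96.2), COL3A1 (567.5 TPM ± 19.0) and DCN (52.01 TPM ± 1.44), matrix genes typical of fibroblasts, were abundant. Within the same fibroblast list, PDGFRA (8.30 TPM ± 1.23) and FAP (5.35 TPM ± 0.0896) were much lower, and PDGFRB (0.533 TPM ± 0.140) was not detected. The values below are those of the libraries labelled NCI-H69 control. In bulk RNA, fewer expressing cells and less RNA per cell cannot be told apart. The part of these marker levels in the protease levels was not tested.

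Promoter sequence is shown first for genes that lie at opposite ends of the range of levels. RefSeq (GRCh38.p14) gave a promoter for 31 of the 52 members, and the 250 bases before the start were searched on both strands for the GC box GGGCGG, a site of the Sp1 family, for TGANTCA, an AP-1 site, for TATAAA and for the E-box CACGTG. The stretches printed end before the outermost start that RefSeq or GENCODE 29 gives and run 5′ to 3′ on the gene's strand. Capitals mark the GC box, TGANTCA and TATAAA. The first is from MMP14, the highest member, at chr14:22836335-22836556 (plus strand). TIMP1, the highest inhibitor, is shown at chrX:47582186-47582312 (plus strand) and TIMP3 at chr22:32801455-32801700 (plus strand). MMP7, which had 1 read in all 3 libraries together, is shown at chr11:102530754-102530997 (minus strand).
MMP14: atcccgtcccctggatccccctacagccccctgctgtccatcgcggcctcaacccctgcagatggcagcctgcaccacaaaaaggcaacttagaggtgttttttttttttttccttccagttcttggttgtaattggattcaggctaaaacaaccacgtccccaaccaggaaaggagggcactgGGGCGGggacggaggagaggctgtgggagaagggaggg
TIMP1: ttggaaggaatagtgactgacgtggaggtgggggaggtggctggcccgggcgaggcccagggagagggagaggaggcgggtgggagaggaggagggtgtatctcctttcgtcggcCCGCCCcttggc
TIMP3: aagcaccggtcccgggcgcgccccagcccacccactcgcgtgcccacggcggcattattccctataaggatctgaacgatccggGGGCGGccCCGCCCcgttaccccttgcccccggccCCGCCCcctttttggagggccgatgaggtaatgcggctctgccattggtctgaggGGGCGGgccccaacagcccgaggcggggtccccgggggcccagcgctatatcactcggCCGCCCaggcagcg
MMP7: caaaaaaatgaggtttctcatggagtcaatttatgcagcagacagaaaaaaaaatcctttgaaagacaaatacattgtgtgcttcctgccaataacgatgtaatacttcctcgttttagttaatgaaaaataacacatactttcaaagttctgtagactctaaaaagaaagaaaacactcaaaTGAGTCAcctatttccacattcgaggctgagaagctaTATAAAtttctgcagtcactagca

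The MMP14 and TIMP1 stretches have 1 GC box each, the TIMP3 stretch has 5, and none of these holds TATAAA or TGANTCA. The MMP7 stretch has no GC box, and holds 1 TGANTCA and 1 TATAAA. MMP7 is not typical of members that were not detected: its full window had the lowest GC content of any member window (33.6%). Some detected members had no promoter to search, among them ADAM9, TIMP2, MMP2, ADAMTS1 and MMP16. Among members with a promoter, the full window held a GC box in 15 of 15 detected and in 9 of 16 not detected. The same window held it in 68.7% of all detected genes and 43.5% of the others, so the direction is that of the whole table. TGANTCA was found in 2 member windows, those of MMP7 and ADAMTS12 (6.45%, against 4.59% of all genes). TATAAA was found in 3 (9.68%, against 7.32%) and CACGTG in 3 (9.68%, against 8.28%). The ratio of observed to expected CpG had a median of 0.863 over the detected members and 0.622 over the others, against 0.836 and 0.456 over all genes. MMP14 is unlike most detected members in this respect, with a CpG ratio of 0.348 and a GC content of 56.8%, the lowest GC content among the 15. ADAM15, the second highest member, had 6 GC boxes and a CpG ratio of 0.945. The most GC boxes, 7, were in the window of ADAMTS7, which was not detected. These matches are descriptions of letters, not of bound sites.

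Most members were low, and a small number carried nearly all of the signal. Of the 52 members, 23 (44.2%) were detected, against 66.5% of all genes in the table. The mean was 10 TPM or more for 9 members (17.3%), against 44.1% of all genes, and 5 members (9.62%) were listed at 0 TPM in all libraries, against 3.7%. Detected genes made up 4 of 15 MMPs (26.7%), 7 of 15 ADAMs (46.7%), 9 of 19 ADAMTSs (47.4%) and 3 of 3 TIMPs. The median member of the 49 proteases had 0.493 TPM ± 0.0404, the median TIMP 34.2 TPM ± 2.35 and the median over all genes was 6.83 TPM ± 0.461. On the log2(TPM + 1) scale, family medians lay -2.69 ± 0.05 (MMP), -2.62 ± 0.11 (ADAM) and -1.97 ± 0.10 (ADAMTS) from the median of all genes, and that of the TIMPs 2.17 ± 0.01. These are descriptions, with no p-value, since genes of a family are not replicates.

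**Figure D1:**
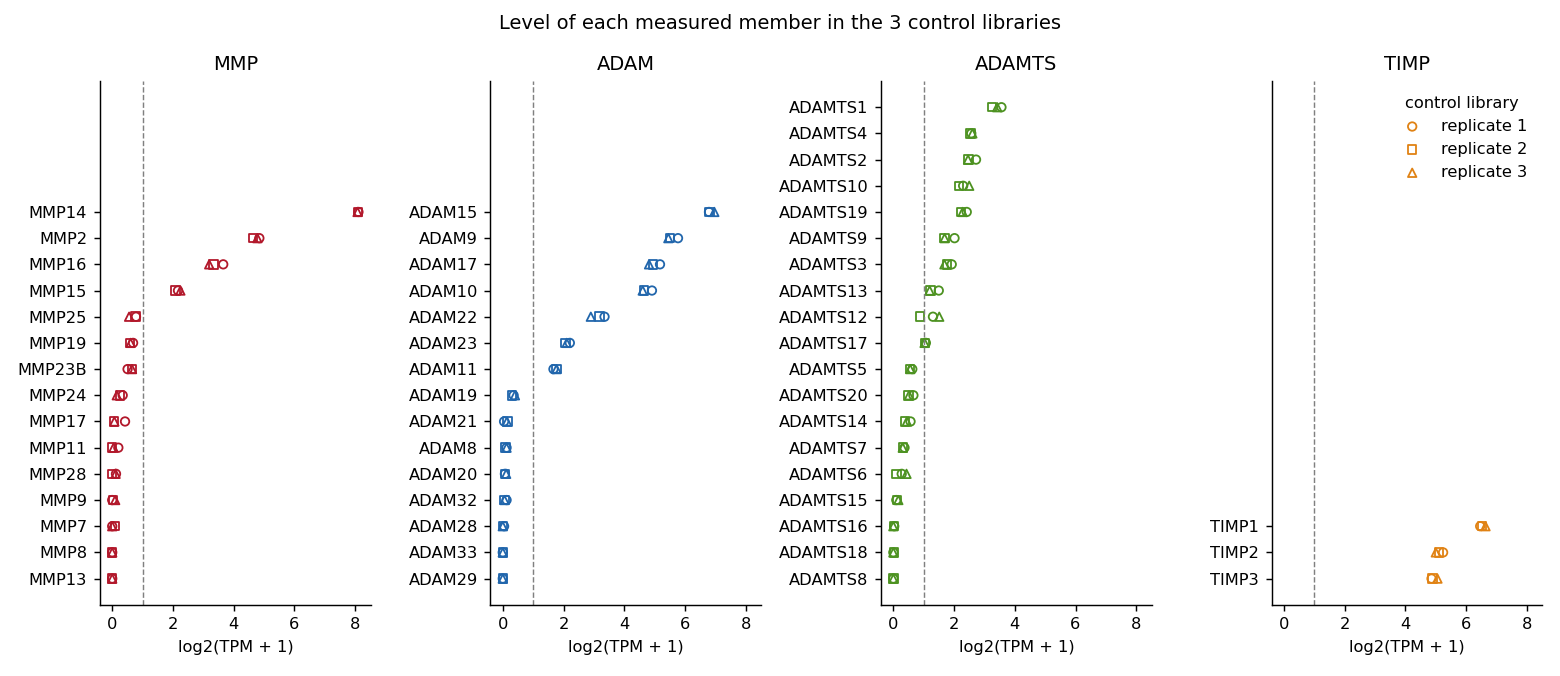
Level of the 52 measured members as log2(TPM + 1) in control replicates 1, 2 and 3 (circle, square, triangle), with one panel per family and genes ordered by mean level. The dashed line marks 1 TPM, and 4 MMPs, 7 ADAMs, 9 ADAMTSs and 3 TIMPs lie above it in all libraries.

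The membrane-type MMPs, which are anchored at the cell surface, held most of the MMP message through MMP14. MMP14 (MT1-MMP), a membrane collagenase that also activates pro-MMP2, lies on chromosome 14 from 22836585 to 22847758 (GRCh38.p14, gene number 4323). It had 274.9, 272.0 and 269.5 TPM in replicates 1, 2 and 3, a mean of 272.1 ± 2.71, which is rank 452 of 17170 genes. The libraries were closer for MMP14 than for any other detected member: its coefficient of variation was 0.995%, next to 0.892% from counting error alone. It made up 86.8% ± 0.926 of summed MMP levels and 46.6% ± 1.21 of the summed levels of all 49 proteases. Of the 6 membrane-type genes, 3 were detected (50%, against 66.5% of all genes). MMP16 (MT3-MMP) had 11.6, 9.07 and 8.15 TPM and was highest in replicate 1. MMP15 (MT2-MMP) had 3.49, 3.22 and 3.74 TPM. The GPI-anchored MMP25 and MMP17 and the transmembrane MMP24 had 0.633, 0.143 and 0.193 TPM. MMP17 rested on replicate 1, which held 7.97 of its estimated reads against 1.0 and 1.21 in the others. MMP24 overlaps its antisense partner MMP24OS (17.4 TPM ± 0.931) over part of its length. It also lies inside the span of MMP24-AS1-EDEM2 (5.86 TPM ± 1.70). Where their transcripts overlap, reads cannot be separated unless the counting used strand. The sources used here do not say whether it did.

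Secreted MMPs were near 0 apart from MMP2. MMP2 (gelatinase A, chromosome 16, 55478830 to 55506691), which cuts denatured collagen and basement membrane collagen, had 27.7, 23.9 and 26.5 TPM (mean 26.1 ± 1.94). Its gelatinase relative MMP9 had 0.030 TPM ± 0.0361, from 0, 0.70 and 2.0 estimated reads. MMP2 was therefore above MMP9 in every library. The measured collagenases, MMP8 and MMP13, had 0 reads in every library. A count of 0 allows up to 3 reads, which is 0.143, 0.134 and 0.133 reads in each 1000000 in replicates 1, 2 and 3 (counting error only). MMP11, the measured stromelysin, had 5.0 reads in all and MMP7, the measured matrilysin, 1.0. Among the 3 measured MMPs outside these classes none was detected, with MMP19 highest at 0.543 TPM ± 0.0586, followed by MMP23B (0.523 TPM) and MMP28 (0.0567 TPM).

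The low secreted MMPs include neighbours on the chromosome. RefSeq annotates 9 MMP genes side by side on chromosome 11, from 102520508 to 102955732, and the 3 of them with a value (MMP7, MMP8 and MMP13) had 1.0 read together. The other 6 genes of that run (MMP1, MMP3, MMP10, MMP12, MMP20 and MMP27) are not analysed here. In all, RefSeq annotates 66 protein-coding genes whose names match the member rule, and the 14 that are not analysed here also include MMP21, MMP26, ADAM2, ADAM7, ADAM12, ADAM18, ADAM30 and TIMP4. MMP23A of the class list is not analysed here either, and it is a near copy of MMP23B, so the level of MMP23B is uncertain.

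ADAM levels were concentrated in 4 widely expressed sheddases, which held 93.9% ± 0.471 of the summed ADAM level. ADAM15, a membrane protease that carries an integrin-binding motif, lies on chromosome 1 from 155051316 to 155062775 and had 109.7, 111.4 and 124.1 TPM (mean 115.1 ± 7.85). ADAM9, a broadly expressed sheddase, had 53.6, 44.3 and 42.8 TPM. ADAM17, which releases TNF and ligands of the EGF receptor, had 35.2, 29.7 and 27.2 TPM (chromosome 2, 9488486 to 9555830). ADAM10, which makes the first cut in Notch receptors and an α-cut in APP, had 29.1, 24.2 and 23.4 TPM (chromosome 15, 58588809 to 58749707). ADAM9, ADAM10 and ADAM17 were highest in replicate 1 and lowest in replicate 3, whereas ADAM15 had the opposite order. The ratio of their summed level to ADAM15 was accordingly 1.07, 0.881 and 0.752 in replicates 1, 2 and 3.

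Of 10 measured ADAMs listed as proteolytic, those 4 were detected (40%, against 66.5% of all genes). The other 6 had at most 0.277 TPM, the level of ADAM19. ADAM33 had 0 reads, ADAM28 2.0 reads in replicate 1 only, and ADAM8, a leukocyte protease, 9.0 in all. Of 5 measured ADAMs listed as lacking a working active site, 3 were detected (60%). These were ADAM22 (9.20, 8.12 and 6.46 TPM), ADAM23 (3.62, 3.18 and 3.30 TPM) and ADAM11 (2.18, 2.41 and 2.41 TPM), a related trio best known as brain proteins of which ADAM22 and ADAM23 bind LGI proteins at synapses. ADAM29 and ADAM32, which are mainly known from testis, had 0 and 4.0 reads in all. Chromosome 8 places ADAM32 2267 bases from ADAM9, and their mean levels were 0.0567 and 46.9 TPM.

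ADAMTS genes formed a broad low tier, with a summed level of 38.3 TPM ± 3.74 and none at a mean of 10 TPM. Of the 7 proteoglycan-cutting members, 3 were detected (42.9%, against 66.5% of all genes). ADAMTS1 was the highest ADAMTS at 10.8, 8.46 and 9.70 TPM (chromosome 21, 26835755 to 26845409). ADAMTS5, an aggrecanase whose gene is its neighbour 72512 bases away, had 0.540, 0.470 and 0.470 TPM, so ADAMTS1 was 19.5-fold ± 1.37 higher. The other aggrecanase, ADAMTS4, had 4.92, 4.83 and 5.07 TPM, with a coefficient of variation of 2.45%, below the 5.58% of counting error alone. ADAMTS9 had 3.04, 2.20 and 2.22 TPM, ADAMTS20 and ADAMTS15 0.477 and 0.0933 TPM on average, and ADAMTS8 0 reads.

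Among the other ADAMTS classes, procollagen N-proteinases had 2 of 3 detected (66.7%, against 66.5% of all genes). ADAMTS2, which trims the amino end of fibrillar procollagens, had 5.60, 4.56 and 4.50 TPM, and ADAMTS3 2.79, 2.41 and 2.21 TPM, against 0.380 TPM ± 0.0917 for ADAMTS14. Of the fibrillin-associated members, ADAMTS10 was detected (3.92, 3.46 and 4.65 TPM), while ADAMTS6 had 0.210 TPM ± 0.140 from 9.99, 4.99 and 18.99 reads. Of 5 remaining members, 3 were detected (60%). These were ADAMTS19 (4.34, 3.71 and 3.86 TPM), ADAMTS13, the enzyme that cuts von Willebrand factor (1.82, 1.34 and 1.29 TPM), and ADAMTS17 (1.10, 1.07 and 1.04 TPM). ADAMTS16 and ADAMTS18 had 2.0 and 1.0 reads in all.

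Of the members that cut cartilage oligomeric matrix protein (COMP), neither was detected. ADAMTS12 missed the threshold through replicate 2, with 1.47, 0.840 and 1.85 TPM. Its estimated reads were closer, 30.99, 24.0 and 31.99, and its coefficient of variation was 36.8% in TPM but 16.5% in reads scaled by library, near the 18.6% of counting error. The reads that stood for 1 TPM of this gene, relative to the median gene, were 0.605, 0.754 and 0.447, so the length by which its reads were divided appears to have differed between libraries. ADAMTS7 had 0.257 TPM ± 0.0289.

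The 3 measured TIMPs were all well above the median gene. TIMP1 lies on chromosome X from 47582436 to 47586789 and had 87.2, 90.9 and 98.7 TPM (mean 92.3 ± 5.83). It made up 59.2% ± 1.79 of the summed TIMP level. TIMP2, the inhibitor that links pro-MMP2 to MMP14, lies on chromosome 17 from 78852977 to 78925387 and had 36.8, 33.6 and 31.1 TPM (mean 33.8 ± 2.90). TIMP3, which is held in the matrix and inhibits ADAM17 and the aggrecanases, lies on chromosome 22 from 32801705 to 32863041 and had 28.1, 28.6 and 32.3 TPM (mean 29.6 ± 2.29). TIMP1 lay above the others in every library, whereas the ranges of TIMP2 and TIMP3 overlapped, with TIMP2 higher in replicates 1 and 2 and TIMP3 higher in replicate 3.

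TIMP1 and TIMP3 lie inside synapsin genes on the opposite strand, and the hosts were much lower. SYN1, which contains TIMP1, had 0.00667 TPM from 1.0 read, and SYN3, which contains TIMP3, had 0.813 TPM ± 0.123. Synapsins coat synaptic vesicles and are neuronal genes. TIMP2 overlaps CEP295NL, which had 0 reads.

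Summed over genes, proteases exceeded inhibitors in each library. The sums take no account of which TIMP inhibits which protease, or how strongly. The 15 MMPs summed to 320.3, 310.3 and 309.8 TPM, the 15 ADAMs to 243.2, 223.8 and 230.2 TPM, and the 3 TIMPs to 152.1, 153.1 and 162.0 TPM. Summed TIMP level over summed protease level was 0.251, 0.269 and 0.280 in replicates 1, 2 and 3 (mean 0.267 ± 0.0145), and over summed MMP level 0.475, 0.493 and 0.523 (mean 0.497 ± 0.0242). The second ratio turned on MMP14: without it, the TIMPs exceeded the remaining MMPs 3.79-fold ± 0.381, and with MMP14 and TIMP1 both left out 1.54-fold ± 0.101. Estimated reads are not divided by transcript length, so long transcripts weigh more in them. With estimated reads the ratios were 0.147 to proteases and 0.269 to MMPs. The level of TIMP1 over the median gene went from 13.6-fold in TPM to 2.89-fold in reads. Per TPM, TIMP1 had 0.25 times the reads of the median gene, as a short transcript does.

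**Figure D2:**
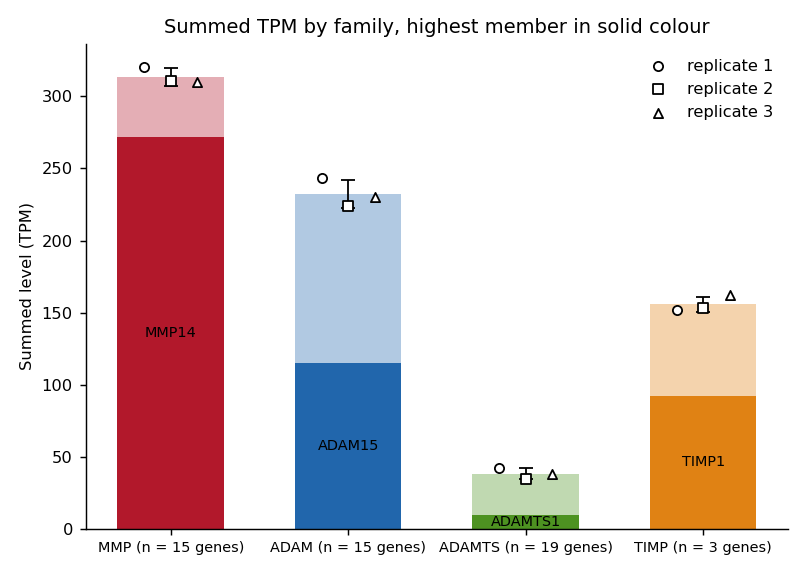
Summed TPM of each family in the 3 control libraries (symbols), with the mean as the bar, the SD as the error bar and the highest member in solid colour. MMP14 made up 86.8% of the MMP bar and TIMP1 59.2% of the TIMP bar, and the TIMP bar (155.7 TPM ± 5.42) lies between ADAMTS (38.3) and ADAM (232.4).

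Inhibitors were also set beside the proteases they are known to bind. In the MMP14, TIMP2 and MMP2 trio, which form a complex that activates MMP2, MMP14 was 8.08-fold ± 0.609 above TIMP2 and 10.5-fold ± 0.773 above MMP2, and TIMP2 was 1.30-fold ± 0.118 above MMP2. The order MMP14, TIMP2, MMP2 was the same in all 3 libraries. TIMP3 over ADAM17 was 0.798, 0.963 and 1.19, so neither was higher throughout. TIMP3 over the sum of ADAMTS4 and ADAMTS5 was 5.14, 5.39 and 5.82. TIMP1 over ADAM10, which it inhibits, was 3.0, 3.75 and 4.22.

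In the order of mean level, the 9 members with at least 10 TPM were MMP14, ADAM15, TIMP1, ADAM9, TIMP2, ADAM17, TIMP3, MMP2 and ADAM10. The ranges over libraries did not overlap between MMP14 and ADAM15, between ADAM15 and TIMP1, between TIMP1 and ADAM9, between ADAM9 and TIMP2 or between TIMP3 and MMP2. They overlapped for TIMP2 and ADAM17, although TIMP2 was the higher in each of the 3 libraries. They also overlapped for ADAM17 and TIMP3 and for MMP2 and ADAM10, and in both pairs the order differed between libraries. The next members were ADAMTS1 (9.65 TPM ± 1.17) and MMP16 (9.61 TPM ± 1.79), just under 10 TPM.

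Members differed in which library was highest. Of the 23 detected members, 16 (69.6%) were highest in replicate 1, 0 in replicate 2 and 6 (26.1%) in replicate 3, and ADAM11 was tied between replicates 2 and 3. Of all 11418 detected genes, 57.5%, 17.2% and 25.0% were highest in replicates 1, 2 and 3, and 0.315% were tied. The median log2 ratio of replicate 1 to replicate 3 was 0.15 over detected members, with a range from -0.25 for ADAMTS10 to 0.51 for MMP16 and ADAM22, and 0.11 over all detected genes, of which 80% lay between -0.17 and 0.43. MMP16, ADAM22, ADAMTS13 (0.50) and ADAMTS9 (0.45) lay above that interval, and ADAM15 (-0.18), TIMP1 (-0.18), TIMP3 (-0.20) and ADAMTS10 below it. TIMP1, TIMP3 and ADAM15 were highest in replicate 3, where ADAM9, ADAM10, ADAM17 and TIMP2 were lowest. The share of genes highest in replicate 1 is a property of the whole table, and its part in these values was not tested.

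**Figure D3:**
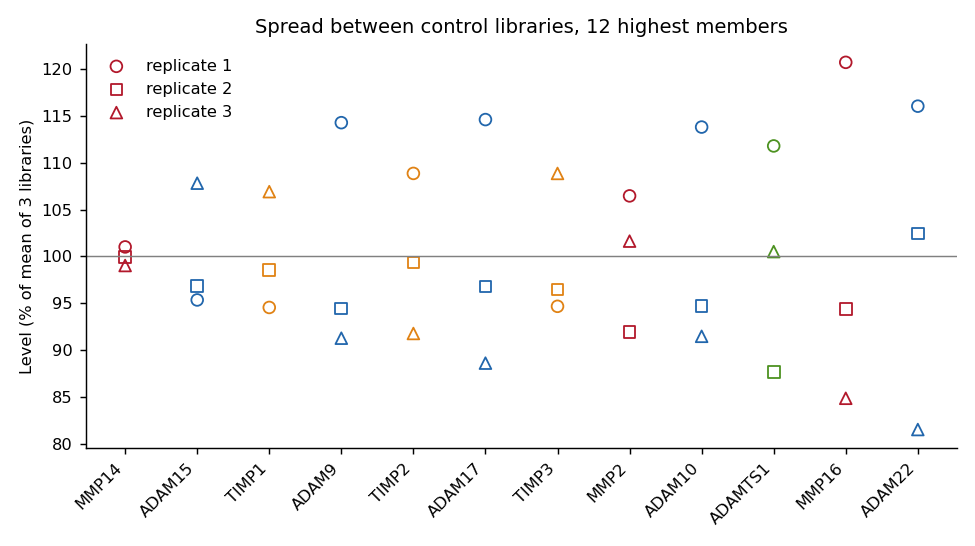
Level of the 12 highest members in each control library as a percentage of their mean over the 3 libraries (symbols for replicates, colours for families). MMP14 stays within 2% of its mean, ADAM9, ADAM10 and ADAM17 have replicate 1 on top, and ADAM15, TIMP1 and TIMP3 have replicate 3 on top.

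The spread between libraries was set beside counting error. Over the 23 detected members the median coefficient of variation of TPM was 8.57%, against 7.56% over all detected genes and 4.69% from counting error alone at the members' depth. In 19 of the 23 the coefficient in TPM exceeded counting error. The exceptions in TPM were ADAMTS4, ADAM11, ADAMTS17 and MMP15. Counting error is computed from reads, and the coefficient of reads scaled by library exceeded it in 17 of the 23. In reads, MMP14 was among those below it (0.828% against 0.892%). In TPM, MMP16 (18.6% against 2.68%) had the largest excess relative to counting error, ahead of ADAM9 (12.5% against 2.09%). Of the 29 members that were not detected, 19 had under 30 reads in all libraries together, so their order among themselves cannot be read at this depth.

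**Figure D4:**
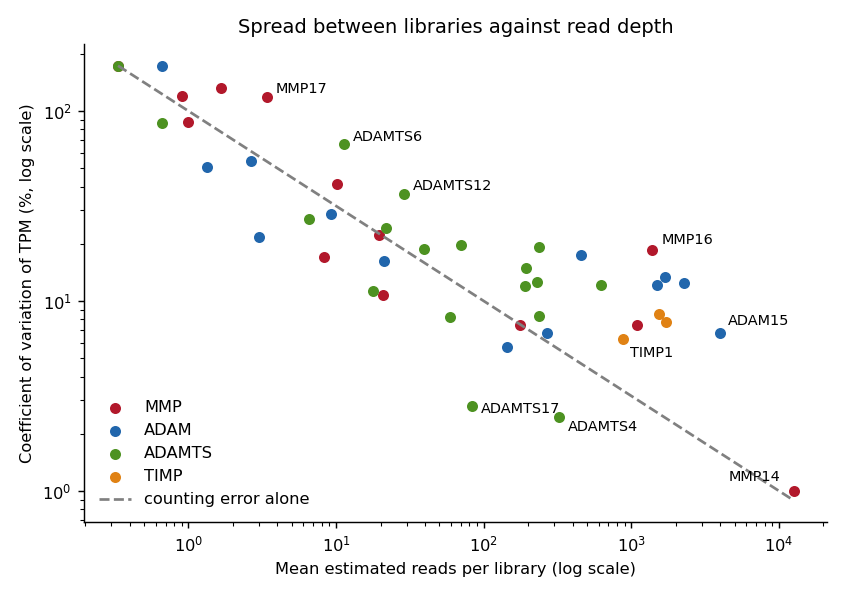
Coefficient of variation of TPM over the 3 control libraries against mean estimated reads per library (both log scales) for the 47 members with reads, coloured by family. The dashed line is the value counting error alone would give, and the sheddases, TIMPs and MMP16 lie above it while MMP14 lies on it.

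Genes that activate, anchor or regulate these proteases were counted beside the 66.5% of all genes that were detected. Of 6 measured proprotein convertases, which cut the precursors of membrane-type MMPs, ADAMs and ADAMTSs, 5 were detected (83.3%), led by PCSK6 (16.2 TPM ± 1.88) and PCSK7 (11.8 TPM ± 0.594), with FURIN at 7.87 TPM ± 0.249. All 9 partners of ADAM10 and ADAM17 were detected. Among them, the tetraspanins that escort ADAM10 were led by TSPAN17 (24.3 TPM ± 1.61) and TSPAN15 (13.5 TPM ± 0.483), and the iRhom genes RHBDF1 and RHBDF2, needed for ADAM17 to mature, had 3.20 TPM ± 0.345 and 3.42 TPM ± 0.165. All 4 anchor and clearance genes were detected, led by BSG (1037 TPM ± 20.1), a surface glycoprotein known as an inducer of MMPs, and including the clearance receptor LRP1 (7.89 TPM ± 1.02). Plasminogen activation genes had 4 of 6 measured members detected (66.7%, close to that share) at low levels, with the inhibitor SERPINE2 highest (5.94 TPM ± 0.607), the receptor PLAUR at 4.59 TPM ± 0.553 and the activator PLAU at 1.28 TPM ± 0.249.

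Inhibitors outside the TIMP family were low. Of 8 such genes, only SPOCK3 was detected (12.5%, against 66.5% of all genes), with 1.02, 1.49 and 1.49 TPM. TFPI2 had 1.29, 0.950 and 1.02 TPM. RECK, a membrane-anchored inhibitor of MMP14, MMP2 and MMP9, and the plasma inhibitor A2M had 0 reads in all libraries. The summed level of the 8 was 3.79 TPM ± 0.278, against 155.7 TPM ± 5.42 for the 3 TIMPs. Of 7 measured metzincins of other families, which share the zinc-binding fold, 2 were detected (28.6%). These were BMP1, the procollagen C-proteinase, at 28.9 TPM ± 1.65 and its relative TLL1 at 1.55 TPM ± 0.146.

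Known substrates varied widely. Of 18 measured ADAM substrates, 10 were detected (55.6%), led by APP (328.0 TPM ± 22.5) and the TNF receptor TNFRSF1A (77.4 TPM ± 4.34). NOTCH2 had 12.3 TPM ± 1.43, while TNF, the substrate that named ADAM17, had 0.360 TPM ± 0.173. Of 15 matrix substrates, 6 were detected (40.0%), led by COL3A1 (567.5 TPM ± 19.0) and COL1A1 (58.5 TPM ± 5.34). None of the 4 proteoglycan substrates was detected: BCAN had 0.507 TPM ± 0.0404, NCAN 0.173 TPM ± 0.0351, and ACAN and VCAN 1.0 and 7.0 reads in all. Of the other matrix substrates, COL4A2 had 0 reads and COMP had 3.78 TPM ± 0.273. Beside these shares stands the 66.5% of all genes that were detected.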

How the data were processed

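The authors deposited a table of 17170 genes. Its levels are TPM, per the file headers, with an equal sum in every library. FPKM are given as well, per the file headers, along with read counts per library that the authors deposited as estimated counts, which are not whole numbers. Per the submitters' processing notes, the tools were HISAT2, StringTie and DESeq2 and the build GRCh38, with no versions or roles. Per the labels' protocols, libraries kept the strand and came from poly(A) RNA with an integrity number above 8.

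Control columns were matched by the names the labels give. The 12 value columns of 3 further libraries match no sample and were used in no step, so the knockout comparison was not made. TPM were averaged over the 3 control libraries, and levels are mean ± SD. Estimated reads gave counting errors (1 over the square root of mean reads). All 52 members matched RefSeq (GRCh38.p14) by gene number.

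The members and gene lists were chosen with earlier results of these data known. Genes named are the TIMPs, members with a mean of at least 10 TPM, and the highest gene of each class and pathway list. Other genes were named after their values were seen. The zinc-binding motif planned for ADAM proteins was not searched, so the proteolytic class is from background knowledge. The scripts were tested on simulated data. Alternatives were FPKM, estimated reads (minimum of 10 reads), detection at 0.5 and 5 TPM, a pseudocount of 0.1 in place of 1, detected members only, leaving out the highest members, and omitting each library in turn. Software was matplotlib 3.10.9, numpy 2.4.6 and pandas 2.3.3 under Python 3.11.15.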

Additional observations from a re-analysis of the deposited data

How the results depend on the processing

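No paired analysis was possible because the knockout samples have no column by name. With a detection minimum of 5 TPM, 12 members, 1 ADAMTS and 1 non-proteolytic ADAM were detected, and with at least 10 estimated reads 14 ADAMTSs. The TIMP to protease ratio was 0.147 with estimated reads and 0.204 without the highest protease and TIMP, against 0.267, and the TIMP to MMP ratio 0.269 and 1.54, against 0.497. MMP14 held 44.8% of protease level with estimated reads, against 46.6%. Family medians minus that of all genes (log2) were, for MMP, -2.13 with FPKM, -5.14 with estimated reads and -4.52 with a pseudocount of 0.1, for ADAM -2.09, -3.78 and -4.21, for ADAMTS -1.66, -2.33 and -2.67, and for TIMP 2.07, 2.32 and 2.31. With detected members only, which removes the low genes by construction, they changed sign to 1.11 for MMP and 1.76 for ADAM, and ADAMTS moved to -0.72.

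Leaving out each library gave 23 to 24 detected members (9 to 10 ADAMTSs, 4 MMPs, 7 ADAMs, 3 TIMPs, with 4 proteolytic and 3 non-proteolytic ADAMs). The ratios ranged from 0.260 to 0.275 and from 0.484 to 0.508, the MMP14 share from 46.0% to 47.2%, and the medians from -2.71 to -2.66 (MMP), -2.68 to -2.57 (ADAM), -2.03 to -1.93 (ADAMTS) and 2.16 to 2.17 (TIMP). Of 45 alternative levels of the 9 members with at least 10 TPM, 1 moved by over 1.5 times, that of TIMP1 with estimated reads. Members under 10 reads in all, of which there were 15, have no readable order at this depth.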
